A study of Mus musculus with 34 samples.

Results

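The transcriptome of the left ventricle (LV) 24 h post-MI was compared to that of sham hearts, in mice that had received no injection. The comparison used the 4 libraries of the MI 24 h group, from the mice lettered C, D, G and H, and the 3 sham libraries, from the mice lettered D, H and I, which are 7 of the 34 libraries of the series. All mice were CFW (Swiss Webster) mice, an outbred stock, and no transgene was involved. MI was induced by tying the left anterior descending artery (LAD) permanently, so the tissue was not reperfused, and the piece sequenced was the ischemic area or the matching area of a sham heart. The mice of the control group were described as sham operated in the methods, whereas their labels read no operation. Sex and age are not given in the labels. The genes compared were the 12487 of the 14552 listed genes that averaged 1 CPM or more (CPM, read counts scaled to library size, here by the TMM method) over the 10 libraries of their table, which also holds 3 libraries taken 4 h post-MI.

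When a coronary artery is blocked, the muscle it feeds loses oxygen and fuel within minutes, and cardiomyocytes, which depend on mitochondrial oxidation of fatty acids, begin to die within hours. Dying cells release molecules that alert the innate immune system. Neutrophils arrive first, followed by monocytes that become macrophages, and these cells clear debris before fibroblasts build a scar. Heart tissue in the first day after a permanent ligation therefore holds dying muscle, surviving muscle, vessels, stroma and arriving blood cells.

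The MI libraries held an estimated 15138765 to 18952669 reads on listed genes and the sham libraries 14861607 to 17589668, each estimated from the value of 1 read. Every listed gene had a value above 0 in every library, and no gene of the mitochondrial chromosome was among them. Of the markers of ventricular muscle, Myh6, Myl2, Tnnt2, Actc1, Ryr2 and Pln were all abundant in each library. The lowest of these in any library 24 h post-MI was Ryr2, with 211, 303, 647 and 263 CPM in mice C, D, G and H. In this order (C, D, G, H for MI and D, H, I for sham) all values below are given. Library G stood nearest to the sham libraries, with correlations of log2(CPM + 1) over genes of 0.884 to 0.900 with them, against 0.775 to 0.836 for C, D and H.

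Expression differed widely. At a Benjamini-Hochberg adjusted p under 0.05 in limma (a call), 66.0% of the genes tested were called, of which 4449 rose (35.6% of those tested) and 3787 fell (30.3%). These shares are the background against which each group of genes is read. Log2 fold changes are differences of mean log2(CPM + 1), given ± SE, and their median over all genes tested was 0.04. The pseudocount of 1 makes them smaller than the true change for genes with low values. Increases were larger than decreases: 609 genes rose and 175 fell by more than 2 on the log2 scale, and 91 rose and 2 fell by more than 4. A total of 4251 genes were not called, and for 2460 of these the 95% confidence interval of the log2 fold change lay within 0.5 of 0. The values are shares of each library's messenger RNA in a piece of mixed tissue, so fewer cells of a type and less RNA per cell cannot be told apart.

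**Figure D1:**
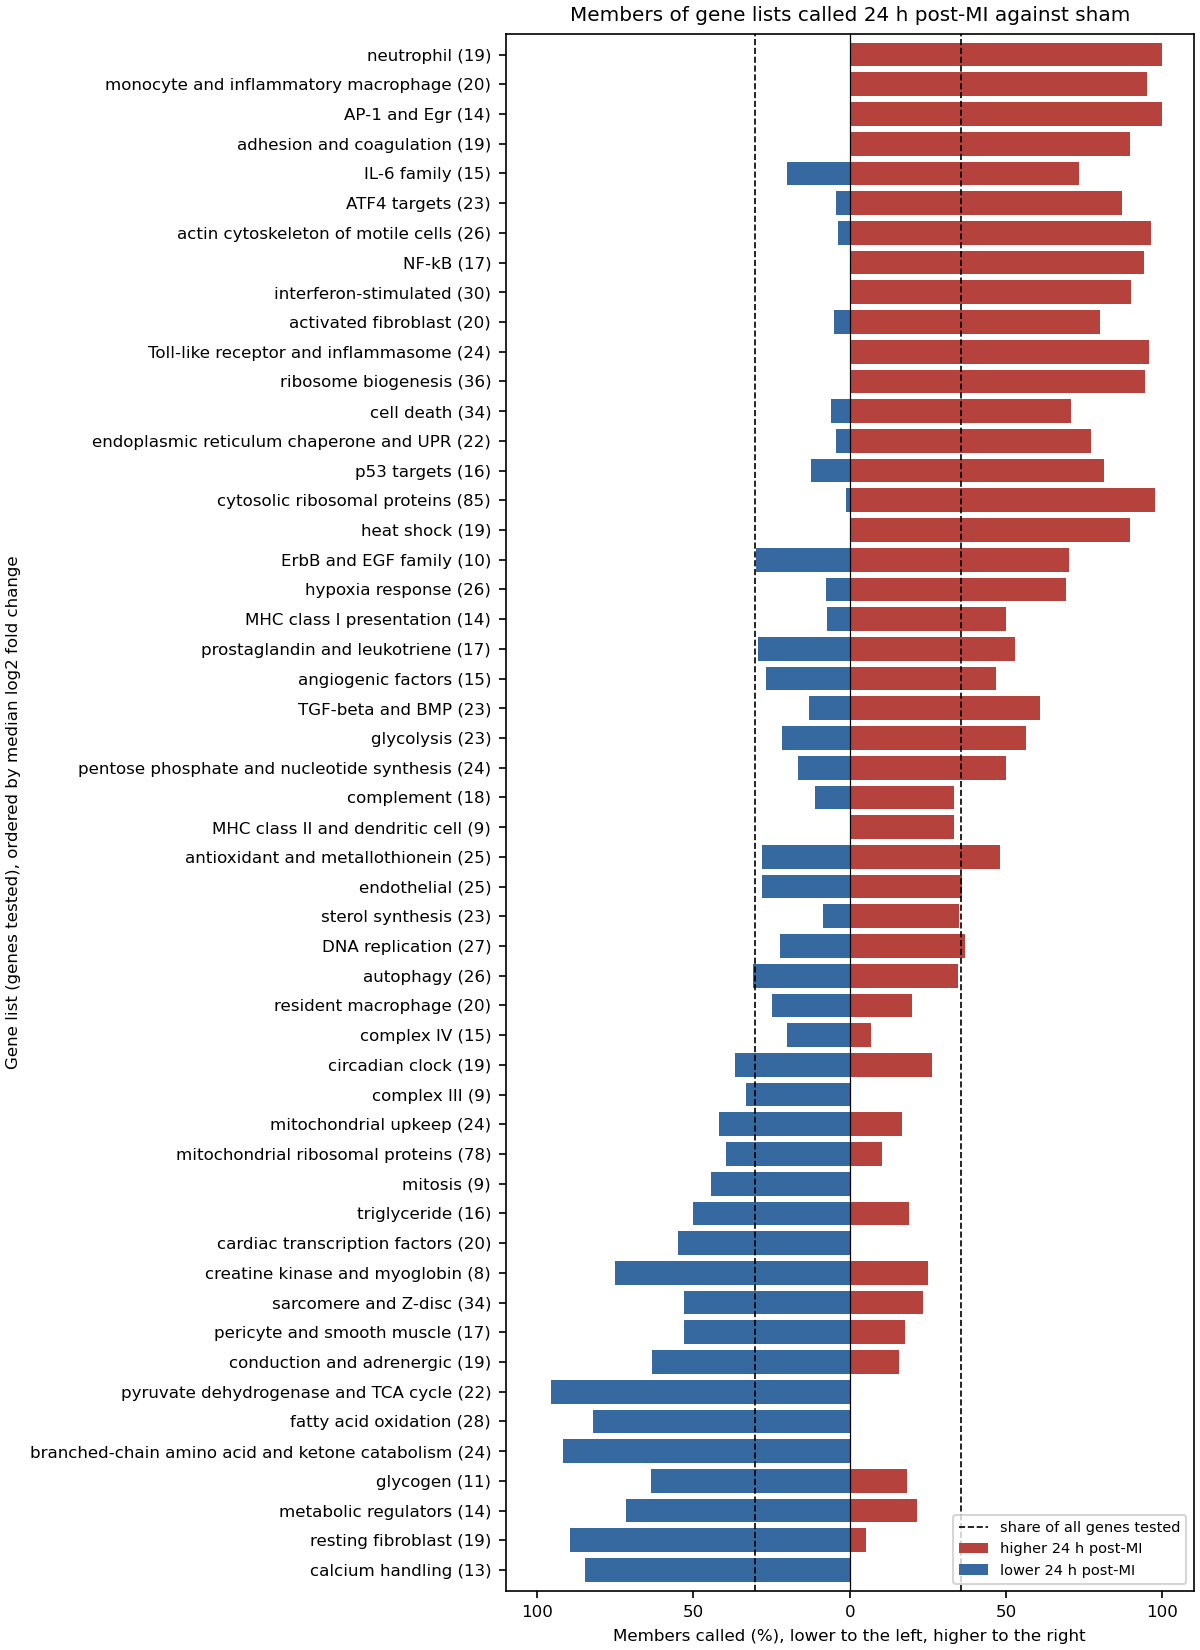
Each bar gives, for 1 gene list, the percentage of the members tested that were called higher (right, red) or lower (left, blue) 24 h post-MI compared to sham, and the number tested stands in parentheses. Dashed lines mark the shares of all genes tested, 35.6% higher and 30.3% lower. Lists of leukocytes, stress and protein synthesis sit at the top and lists of muscle metabolism, calcium handling and resting fibroblasts at the bottom.

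Changes were ranked among called genes that averaged 10 CPM or more and whose groups did not overlap. Beyond the few genes with the largest changes, the next 5 increases included Timp1 (7.11 ± 0.26), a secreted inhibitor of matrix metalloproteinases. Lcn2 (6.78 ± 0.40), a neutrophil granule protein that binds iron carriers, was another. The rest were the inducible heat shock proteins Hspa1b (6.77 ± 0.29) and Hspa1a (6.58 ± 0.27), and Ankrd2 (6.62 ± 0.40), a stretch-responsive muscle ankyrin repeat protein. Timp1 had 1.34, 0.807 and 0.617 CPM in sham hearts and 394, 201, 206 and 285 CPM post-MI. Ankrd2 had 0.0362, 0.121 and 0.0975 CPM in sham hearts and 97.3, 105, 101 and 121 CPM post-MI. As this ranking required, each MI heart lay above each sham heart for both genes.

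The decreases of the same ranks were smaller. They were Armc2 (fell by 3.83), Cenpf (by 3.83), the muscle myosin light chain kinase family member Mylk4 (by 3.49), the muscle ubiquitin ligase subunit Asb15 (by 3.37) and the ephrin receptor Epha4 (by 3.14). Cenpf, a protein of the kinetochore and the nuclear envelope, had 7.67, 24 and 52.7 CPM in sham hearts and 0.826, 0.438, 0.443 and 0.723 CPM post-MI. Mylk4 had 231, 291 and 279 CPM in sham hearts and 16, 33.7, 34.7 and 14 CPM post-MI. As the ranking required, the groups did not overlap for any of these. Heart G was the highest of the MI hearts for both Armc2 (1.13, 2.31, 8.42 and 1.45 CPM) and Epha4 (1.88, 2.72, 10.4 and 2.21 CPM).

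**Figure D2:**
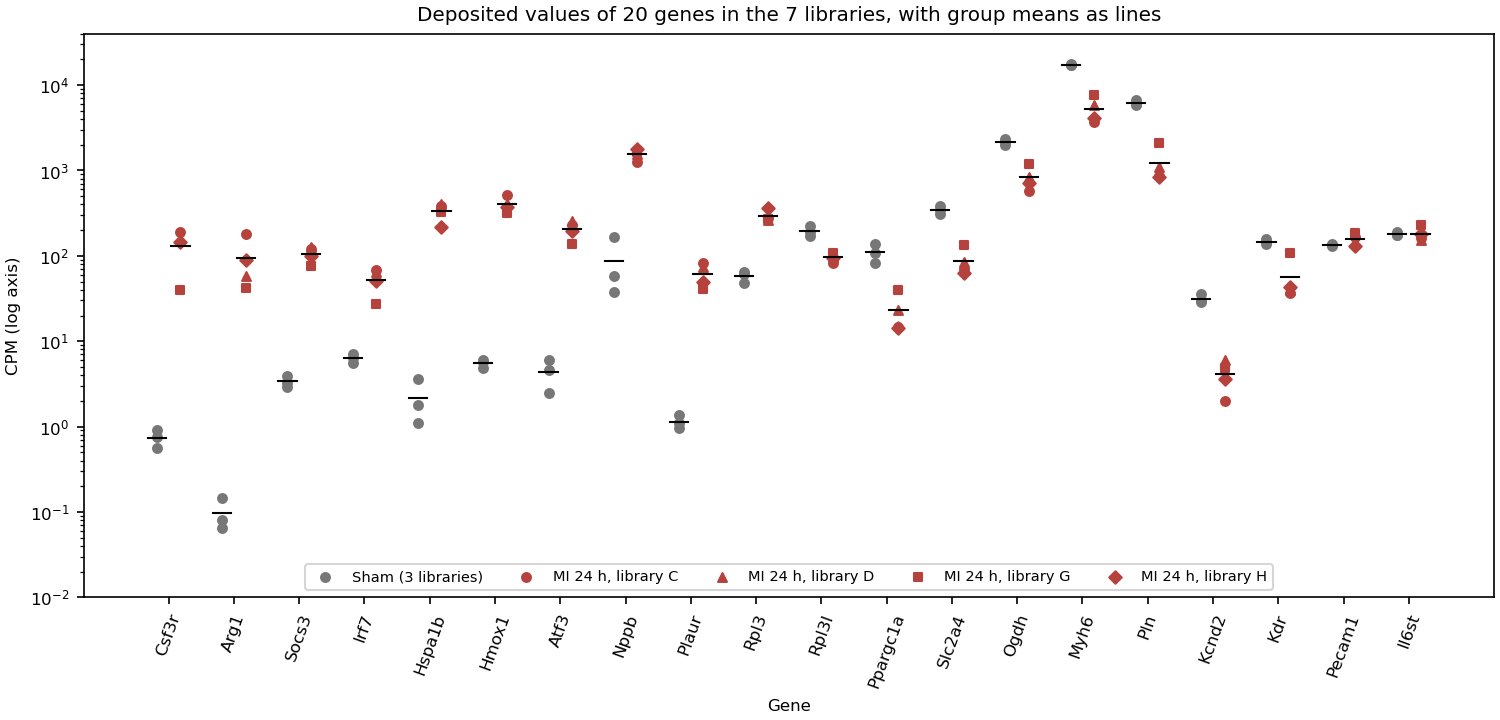
CPM values (log axis) of 20 genes described in the text, with grey points for the 3 sham libraries, a red symbol for each of the 4 MI 24 h libraries and a line at each group mean. Csf3r and Arg1 rose by orders of magnitude, Ogdh, Myh6 and Pln fell with heart G nearest to sham, and Pecam1 and Il6st overlapped between groups.

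Genes of arriving leukocytes rose together. Of 27 neutrophil genes fixed, 23 were listed. Of these, 19 reached the mean of 1 CPM, and all 19 rose (median log2 fold change 4.95). Some, such as Cxcr2, were near 0 in sham hearts and reached that mean only through the MI libraries. For such genes, here and in the lists below, the filter itself favours a rise. The summed level of the 19 genes went from 18.5 to 29.3 CPM in sham hearts to 611 to 2708 CPM post-MI. Csf3r, the receptor for the growth factor G-CSF, had 0.904, 0.565 and 0.747 CPM in sham hearts and 193, 149.8, 39.5 and 144 CPM post-MI. The receptor Cxcr2, which guides neutrophils along chemokine gradients, rose from 0.0835 ± 0.0128 CPM (SD, n = 3) to 92.2 ± 51.6 CPM (SD, n = 4), and the decoy receptor Il1r2 rose by 6.01 on the log2 scale. The granule collagenase Mmp8 rose by 3.85. Heart G had the lowest values of Csf3r among the MI hearts but still lay above every sham heart. Gm5483, an uncharacterised gene, went from 0.0484 to 33.5 CPM, with 44.3, 42.2, 8.86 and 38.8 CPM in the MI hearts, so it was lowest in heart G as well. What arriving cells contribute to the lists below was not tested.

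Monocyte and inflammatory macrophage genes behaved alike, with 19 of 20 called higher (median 3.75). Arg1, the arginase of wound macrophages, had 0.145, 0.0807 and 0.065 CPM in sham hearts and 182, 57.8, 42.5 and 89.9 CPM post-MI. Chil3 rose by 5.45, the endotoxin co-receptor Cd14 by 4.77, osteopontin (Spp1) by 5.67 and the monocyte receptor Ccr2 by 3.21. Ccr2 was higher in heart C than in the others, at 57.1, 26.4, 28.8 and 27.2 CPM.

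Markers of the macrophages that live in the uninjured heart did not follow. Of 20 tested, 4 rose and 5 fell, with a median of -0.09, below the background in both directions. The scavenger receptor Cd163 had 15.3, 7.83 and 8.09 CPM in sham hearts and 3.15, 7.63, 6.65 and 3.88 CPM post-MI, so each MI heart lay below each sham heart, but the difference of -0.85 ± 0.36 was not called (adjusted p = 0.054), although it was without MI heart D (-1.02) or G (-0.97). Mrc1, the mannose receptor, differed by -0.32 and was not called, or fell by 0.48 without heart G. Cx3cr1, the fractalkine receptor, fell by 0.95 (-0.87 and not called without sham heart H), and the bridging protein Gas6 fell by 0.94. Pf4, shared with the platelet list, rose by 1.90.

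Few lymphocyte genes reached the mean of 1 CPM. Of 22 T and NK cell genes fixed, 15 were listed and 4 reached it. Of 12 B cell genes fixed, 9 were listed and 1 reached it. Genes that were not listed have no values here, so their means are unknown. Cd3e, a chain of the T cell receptor complex, had 0.253, 0.0807 and 0.227 CPM in sham hearts and 2.36, 5.54, 1.65 and 1.48 CPM post-MI. Genes of antigen presentation by MHC class II were flat for the most part: the invariant chain Cd74 differed by 0.21 ± 0.20 (95% confidence interval -0.22 to 0.65) and H2-Aa by 0.08, while 3 of 9 members were called higher. For the class II regulator Ciita (0.51) the call was lost without MI heart C (0.36) or H (0.49) or without sham heart D (0.45) or I (0.46). The class I list had 7 of 14 higher, among them Tap1 (1.33), Psmb8 (1.28) and H2-K1 (0.92).

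Genes for moving a cell's actin skeleton rose in 25 of 26 cases (median 1.76). The leukocyte members Coro1a (3.43), Lcp1 (3.23) and Rac2 (3.16) rose most, and broadly used members such as Actb (2.24), Msn (2.43) and Vim (1.75) rose as well. Ezr, an epithelial relative of Msn, fell by 0.33, a call that was lost without D (-0.34), G (-0.25) or H (-0.31) of the MI hearts and without H (-0.34) or I (-0.21) of the sham hearts. The neutrophil and monocyte lists above rose in the same hearts, and their part in this result was not tested.

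Chemokines are the ligands that draw leukocytes from blood. Of 32 listed, 22 reached the mean of 1 CPM, and of these 15 rose and 4 fell. The ligands of Cxcr2 were among the largest increases, with Cxcl3 at 5.89, Cxcl2 at 5.47, Cxcl5 at 5.22 and Cxcl1 at 4.65. Ccl2 and Ccl7, ligands of Ccr2, rose by 5.30 and 4.52. Cxcl12, which holds leukocytes in the marrow and acts through Cxcr4, fell from 208, 273 and 264 CPM to 77.9, 55, 180.1 and 100.1 CPM, and no MI heart reached the sham range. Its receptor Cxcr4 rose by 1.52.

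Interleukin 1 and interleukin 6 are early alarm cytokines. Il1b had 0.289, 0.484 and 0.455 CPM in sham hearts and 101, 86.2, 35.9 and 94.7 CPM post-MI. Il6 had 0.0723, 0.121 and 0.162 CPM in sham hearts and 35.1, 25.1, 14.3 and 26.4 CPM post-MI. Both were under 1 CPM in every sham heart and far above it in every MI heart. Il11 (2.96) and the alarm cytokine Il33 (2.65) rose, whereas Il15 differed by -0.38 and was not called.

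Of 15 genes of the IL-6 family, 11 rose and 3 fell. Osm rose by 3.42, its receptor Osmr by 2.84 and the feedback inhibitor Socs3 by 4.59. Il6st, the signalling chain shared by the family, had 175, 189 and 176 CPM in sham hearts and 161, 154, 231 and 180.1 CPM post-MI, a difference of -0.01 ± 0.13 with a 95% confidence interval of -0.29 to 0.28. Lifr, the receptor chain for LIF, fell by 1.26, and the transcription factor Stat3 rose by 0.80.

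Receptors that sense damage and the pathways below them rose almost throughout. Of 24 Toll-like receptor and inflammasome genes, 23 were called higher, including Tlr2 (2.68), Tlr4 (1.31), Tlr13 (3.40), the inflammasome sensor Nlrp3 (3.37) and, less, the protease Casp1 (0.71). The call of Casp1 was lost without MI heart C (0.55) or D (0.62) or without sham heart D (0.55) or I (0.69). Nlrp3 had 1.08, 0.605 and 0.39 CPM in sham hearts and 24.3, 20.4, 7.93 and 17.3 CPM post-MI. In the NF-kB list, 16 of 17 rose (median 1.73). Its feedback inhibitors Nfkbia (2.05) and Tnfaip3 (2.18) and its cofactor Nfkbiz (2.85) rose more than the subunit gene Nfkb2 (1.09).

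Of 18 complement genes, 6 rose and 2 fell, against 35.6% and 30.3% of all genes. The anaphylatoxin receptor C5ar1, found on neutrophils and monocytes, rose by 3.41, and factor B (Cfb) rose by 2.28. C3, the central component, had 9.15, 28.4 and 50.3 CPM in sham hearts and 38.5, 65.3, 40.7 and 52.4 CPM post-MI and was not called (adjusted p = 0.069), although it was without sham heart I (1.51). Cd59a, which shields cells from complement lysis, fell by 1.06. Among lipid mediators, the inducible cyclooxygenase Ptgs2 rose by 4.17, the leukotriene B4 receptor Ltb4r1 by 3.64 and the 5-lipoxygenase partner Alox5ap by 2.96, while the prostaglandin-degrading enzyme Hpgd fell by 1.12.

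Interferon-stimulated genes carry out antiviral defence and are switched on by factors that bind the interferon-stimulated response element. Of 30 tested, 27 rose (median 1.67). Irf7, which amplifies the response, had 5.5, 7.06 and 6.43 CPM in sham hearts and 68, 65.2, 27.1 and 50.6 CPM post-MI. Isg15, a ubiquitin-like protein, rose by 3.43, Oas3 by 4.02 and Zbp1, a sensor of nucleic acids that can trigger necroptosis, by 3.49. Heart G had the smallest rise: the median difference of the list from the sham mean was 2.24, 2.15, 0.85 and 1.66 in the 4 MI hearts.

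The core letters of that element, GAAANNGAA, were searched on both strands in the 250 bases before the start of each gene with a RefSeq promoter on GRCm38.p6, which was found for 9690 of the 12487 genes. They were present for 59.1% of the 22 interferon-stimulated genes with a promoter and for 7.73% of all 9690. The windows below show the match (in capitals, printed on the strand of the gene, so that a match on the opposite strand reads as the reverse complement) in 4 members that rose. They are shown as examples of the sequence behind these shares.
Isg15, chr4:156200865-156200894, minus strand: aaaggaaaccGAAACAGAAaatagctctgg
Oas3, chr5:120777709-120777738, minus strand: aggagaaaacGAAAGTGAAgggaggtgact
Bst2, chr8:71537577-71537606, minus strand: ccaggaaaatGAAACTGAAaggctgcagtt
Ifit1, chr19:34640795-34640824, plus strand: cagtctcagtTTCAGTTTCtcactgctgac
The match ended 57 bases before the start of Isg15, 60 before Oas3, 115 before Bst2 and 75 before Ifit1. Their log2 fold changes were 3.43, 4.02, 1.70 and 2.65. Igtp (1.05) and Gbp3 (0.86), which were not called, also carried a match. A match of letters is a description and does not show binding.

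Immediate early genes encode transcription factors of the AP-1 and Egr families that cells make within minutes of a stimulus. All 14 tested rose at 24 h (median 2.70). Atf3 had 6.07, 4.64 and 2.5 CPM in sham hearts and 228, 253, 139 and 196 CPM post-MI. Fosl1 had 0.0362, 0.0403 and 0.0325 CPM in sham hearts and 24.7, 21.4, 12 and 22.5 CPM post-MI. Fos rose by 2.68, Junb by 2.86, Egr1 by 1.79 and the survival gene Ier3 by 3.72. The AP-1 letters TGANTCA were found before 16.4% of the 451 genes with a promoter that rose by more than 2 and before 5.73% of all. The share was 7.11% among all genes called higher and 5.53% among those that fell by more than 1. Other letters differed in the 451 genes too: GAAANNGAA stood before 13.3% of them (7.73% of all) and CCGGAAG before 5.54% (15.4% of all). What these shares reflect was not tested.

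Heat shock proteins hold damaged proteins in solution and refold them, and HSF1 drives them through inverted repeats of GAA. Of 19 tested, 17 rose (median 1.12). Hspa1b had 3.6, 1.78 and 1.09 CPM in sham hearts and 387, 405, 328 and 216 CPM post-MI. Hspa1a and Hspa1b are near-identical copies, so reads may have been divided between them. The small heat shock protein Hspb1 had 111, 94.5 and 71.5 CPM in sham hearts and 1962, 1603, 1563 and 2616 CPM post-MI, and Cryab, its partner in muscle, rose by 2.16 from a mean of 1073 CPM. Hsp90aa1, the inducible HSP90, rose by 2.44. The mitochondrial chaperone Hspd1 differed by -0.19 and was not called, or fell by 0.28 without heart G.

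The letters GAANNTTC, which read the same on both strands, were present before 57.1% of the 14 heat shock genes with a promoter and before 6.07% of all. These 3 windows are shown for members that rose to different degrees, with the match in capitals.
Hspa1a, chr17:34972242-34972271, minus strand: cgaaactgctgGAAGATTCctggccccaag
Hspb1, chr5:135887811-135887840, plus strand: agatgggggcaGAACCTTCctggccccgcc
Dnaja1, chr4:40722333-40722362, plus strand: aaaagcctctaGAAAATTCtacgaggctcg
The log2 fold changes were 6.58, 4.37 and 1.15. The match lay 96, 89 and 116 bases before the start of Hspa1a, Hspb1 and Dnaja1. Hspd1 and Hspb3 (0.04), which were not called, also carried a match. The match of Hspd1 is the same site as that of Hspe1, which rose by 0.64. The windows of Hspa1a and Hspa1b are identical, so the genes with a match hold fewer distinct sites than their number.

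The endoplasmic reticulum answers unfolded proteins with chaperones and with the factors Xbp1, Atf6 and Atf4. In this list 17 of 22 genes rose (median 1.23). The chaperone Calr rose by 1.07, and the master chaperone Hspa5 had 435, 434 and 369 CPM in sham hearts and 1479.5, 1077, 1358 and 1126 CPM post-MI. Sdf2l1 rose by 2.87, the secreted factor Manf by 2.09 and Xbp1 by 2.00, whereas Herpud1, which helps to degrade reticulum proteins, fell by 0.57.

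Atf4 directs the integrated stress response towards amino acid uptake and synthesis. Atf4 had 68.5, 53.9 and 44.7 CPM in sham hearts and 392, 345, 293 and 321 CPM post-MI. Of its 23 listed targets and partners, 20 rose (median 1.85), including the mitochondrial folate enzyme Mthfd2 (3.45), asparagine synthetase Asns (3.07), the cystine carrier Slc7a11 (3.67) and the stress hormone Gdf15 (3.29). Vldlr, the lipoprotein receptor, was the member that fell, by 1.60.

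Antioxidant genes divided by kind. Heme oxygenase Hmox1 had 6.07, 4.92 and 5.78 CPM in sham hearts and 519, 399.8, 319 and 370.0 CPM post-MI, and the metallothioneins Mt2 and Mt1, which bind zinc and copper, rose by 6.28 and 3.49. Txnrd1 and Srxn1, which regenerate thiol enzymes, rose by 2.36 and 2.53. Enzymes that remove superoxide and peroxide in mitochondria and peroxisomes fell: Sod2 had 588, 663 and 578 CPM in sham hearts and 256, 344, 379.7 and 308 CPM post-MI, Prdx3 fell by 0.43 and catalase (Cat) by 0.50. Within the list, 12 of 25 rose and 7 fell.

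Low oxygen stabilises HIF1A and so turns on glucose uptake, glycolysis and vessel growth. Of 26 genes, 18 rose (median 0.82). The glucose carrier Slc2a1 had 12.5, 10.9 and 14 CPM in sham hearts and 257, 194, 146 and 171 CPM post-MI. Adrenomedullin (Adm), a vessel-widening peptide, rose by 3.31, the oxidase Ero1l by 3.15, the glycolytic activator Pfkfb3 by 2.83 and Hif1a itself by 1.11. Vegfa, the main vessel growth factor, had 307, 218 and 176 CPM in sham hearts and 268, 197, 209.8 and 216 CPM post-MI, and its difference of -0.04 ± 0.19 was not called, with a 95% confidence interval of -0.45 to 0.36. Epas1, which encodes HIF2A, fell by 1.59, and the oxygen sensor Egln1 fell by 1.14.

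Cell death genes rose in 24 of 34 cases and fell in 2 (median 1.23). Ripk3, the kinase that starts necroptosis, had 2.53, 1.73 and 2.7 CPM in sham hearts and 28.7, 18.8, 11.9 and 19.4 CPM post-MI, and its substrate Mlkl rose by 1.98. Casp9, of the mitochondrial route to apoptosis, fell by 0.63, and the protective Bcl2l1 rose by 1.95 while Bcl2 differed by -0.29 and was not called. The largest rise was that of Tnfrsf12a, the receptor for TWEAK, from a mean of 32.5 to 326 CPM.

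Targets of p53, the factor that answers DNA damage, rose in 13 of 16 cases. The cell cycle inhibitor Cdkn1a had 36.8, 5.61 and 5.62 CPM in sham hearts and 225, 256, 134 and 178 CPM post-MI. Btg2 rose by 2.50, the death effector Bax by 1.67 and Mdm2, which limits p53, by 0.85. Ccng1 fell by 1.69 from a sham mean of 763 CPM. Autophagy genes matched the background, with 9 of 26 higher and 8 lower: the cargo receptor Sqstm1 rose by 1.11, Bnip3, which marks mitochondria for removal, by 0.92, and the initiating kinase Ulk1 and the ubiquitin ligase Park2 fell by 0.94 and 0.92. Of 12 cathepsins, 5 rose and 2 fell (median 0.17, lowest -1.27), against 35.6% and 30.3% of all genes. The phagocyte enzymes Ctss (2.40) and Ctsz (1.64) rose. The more abundant Ctsb (0.12) and Ctsd (-0.25) were not called, the latter being called lower without heart G (-0.28).

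The heart draws most of its energy from fatty acids burned in mitochondria. Of 28 genes of fatty acid uptake and oxidation, 23 fell (median -0.73). Cpt1b, which admits long fatty acids to mitochondria, had 542, 538 and 524 CPM in sham hearts and 123, 223, 338 and 171 CPM post-MI. Acsl1, which activates them, fell by 1.60, the lipase Lpl by 1.32, the dehydrogenase Acadm by 1.01 and the carrier Cd36 by 0.66. For Cd36 the call was lost without MI heart C (-0.44) or H (-0.57) and without any single sham heart (-0.58, -0.69 and -0.70 without D, H and I). In the TCA cycle and its pyruvate gate, 21 of 22 fell (median -0.72). Ogdh had 1978, 2326 and 2139 CPM in sham hearts and 569, 838, 1207 and 707 CPM post-MI. Citrate synthase Cs fell by 0.85, Dlat of pyruvate dehydrogenase by 1.0 and Idh3a by 0.98, and the exception was Sdhb, at -0.27, which was called without heart G (-0.33) or sham heart I (-0.35). Ketone and branched-chain amino acid breakdown fell in 22 of 24 genes, with the phosphatase Ppm1k (-2.44), which activates the branched-chain pathway, Bckdhb (-0.85), Mut (-1.80) and the ketone enzymes Oxct1 (-1.38) and Bdh1 (-1.31) among them.

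Subunits of the respiratory chain moved less than the enzymes that feed it. The lists had 15 of 37 genes lower for complex I (median -0.19), 3 of 9 for complex III (-0.16), 3 of 15 for complex IV (-0.10) and 5 of 15 for ATP synthase (-0.29), near or under the 30.3% of all genes except in complex I. Without heart G, 10 of the 15 ATP synthase genes were lower. Ndufs1, the largest complex I subunit, had 682, 732 and 653 CPM in sham hearts and 281, 370.5, 487 and 347 CPM post-MI. Ndufa4 was placed in the complex I list by its symbol alone. It had 463, 322 and 316 CPM in sham hearts and 304, 385, 397 and 395 CPM post-MI. Its values overlapped between groups, with a 95% confidence interval of -0.30 to 0.36. Atp5a1 fell by 0.82, the largest change in ATP synthase, and Uqcrc1 of complex III by 0.41 (not called without sham heart D, -0.39, or H, -0.37). Cox6a2, the muscle form of a complex IV subunit, fell by 0.33, and Cox6a1, the form of other tissues, rose by 0.45. The fall of Cox6a2 was not called without MI heart C (-0.24) or H (-0.35) or without sham heart D (-0.33) or H (-0.27).

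Of 24 genes of mitochondrial upkeep, such as shape and import, 10 fell and 4 rose (median -0.18). The fusion proteins Opa1, Mfn1 and Mfn2 fell by 1.33, 1.28 and 1.10, while the import receptors Tomm20 and Tomm40 rose by 0.89 and 0.34. Mfn2 had 615, 754 and 711 CPM in sham hearts and 255, 334, 464 and 269 CPM post-MI. Transcription factors that set oxidative metabolism fell in 10 of 14 cases. The coactivator Ppargc1a had 107, 139 and 82.8 CPM in sham hearts and 14.7, 23.3, 39.6 and 14.3 CPM post-MI, and its partners Ppara, Esrrg and Esrra fell by 2.16, 1.86 and 0.67. Myc, which drives growth and ribosome production, had 2.17, 1.86 and 1.66 CPM in sham hearts and 65, 59.8, 46.1 and 57.2 CPM post-MI. For Mfn2 and Ppargc1a heart G lay nearest to sham.

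**Figure D3:**
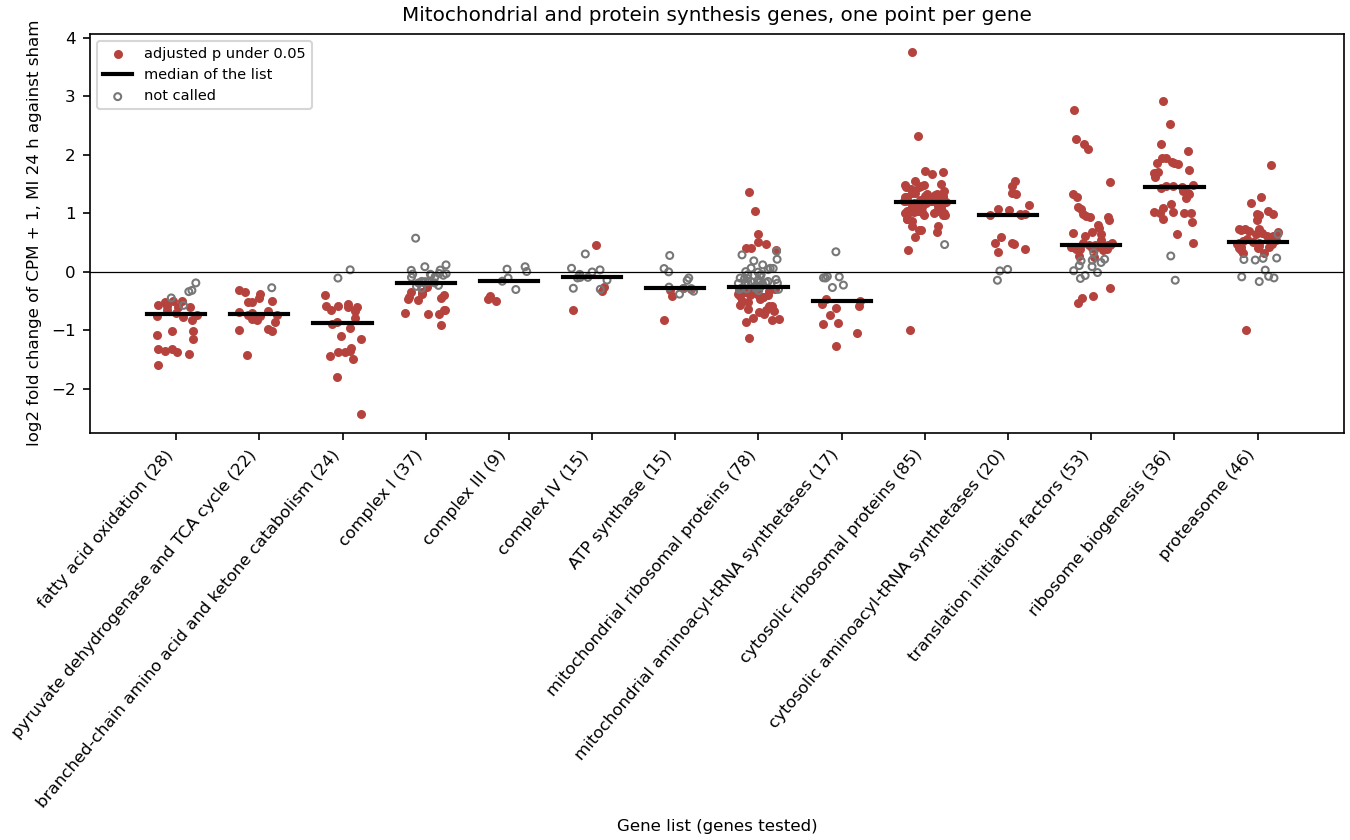
Log2 fold change of CPM + 1 in MI 24 h compared to sham (vertical axis) for each gene of 14 lists, with filled points for calls, open points for genes not called and a line at each median. Oxidation enzymes centre between -0.72 and -0.88, respiratory chain subunits nearer 0, and cytosolic ribosomal proteins at 1.20.

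Glucose handling changed form. Glycolysis genes rose in 13 of 23 cases and fell in 5. Slc2a4, the insulin-controlled carrier of muscle, had 311, 380.0 and 341 CPM in sham hearts and 69.4, 85.8, 134 and 63.5 CPM post-MI, and fell while Slc2a1 and Slc2a3 rose by 3.82 and 3.05. The muscle phosphofructokinase Pfkm fell by 1.42 and the platelet form Pfkp rose by 1.60. The same was seen for enolase, with Eno3 falling by 1.04 and Eno1 rising by 1.01, for phosphoglycerate mutase (Pgam2 fell by 0.71, Pgam1 rose by 1.63) and for lactate dehydrogenase (Ldhb fell by 0.63, Ldha rose by 0.66). Eno1 had low values, at 3.02, 1.66 and 1.87 CPM in sham hearts and 7.57, 3.89, 5.07 and 5.31 CPM post-MI. Eno3 had 1125, 1177 and 1042 CPM in sham hearts. Slc16a3, which exports lactate, had 1.95, 1.17 and 1.4 CPM in sham hearts and 155, 111, 76.8 and 104 CPM post-MI, whereas the carrier Slc16a1 differed by -0.27 and was not called, or fell by 0.48 without heart G. The leukocyte hexokinase Hk3 rose by 2.77. The neutrophil and monocyte lists rose in the same hearts, and what they contribute to the related forms was not tested. These pairs were picked after their values were seen, and Eno1, Ldha and Pgam1 have close copies in the genome that can share reads.

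**Figure D4:**
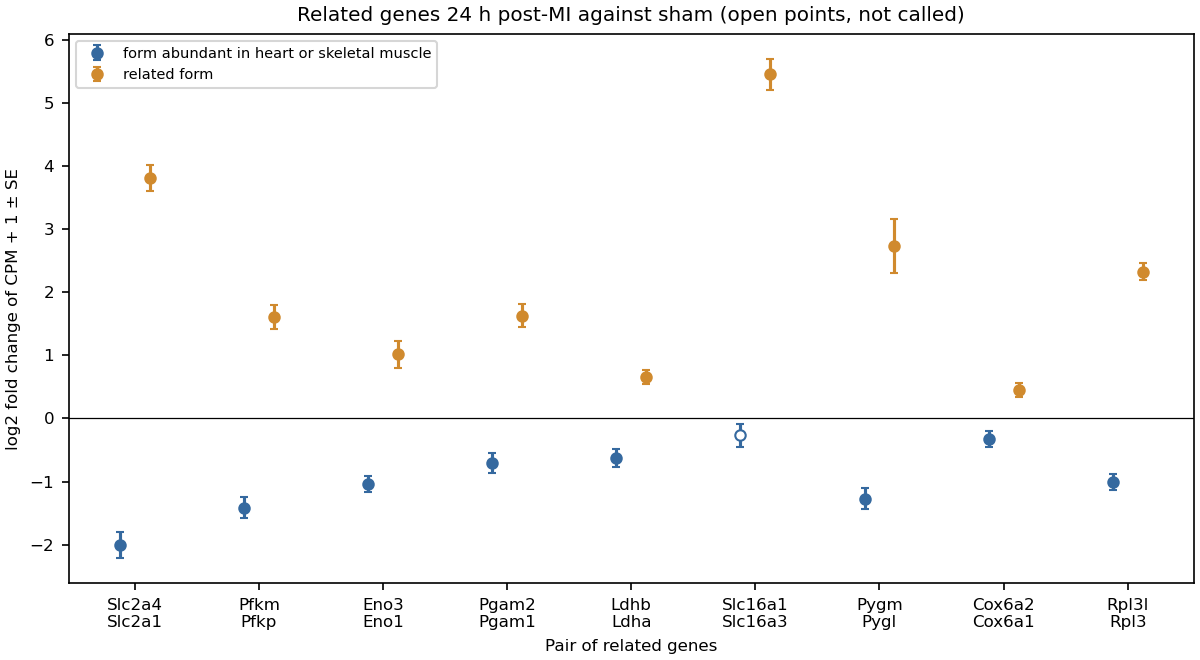
Log2 fold change ± SE of CPM + 1 (MI 24 h compared to sham) for 9 pairs of related genes, blue for the form abundant in heart or skeletal muscle and orange for the related form, open where not called. The blue form is below 0 and the orange form above 0 in every pair, and only Slc16a1 was not called.

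Glycogen breakdown and synthesis genes fell in 7 of 11 cases, among them Phkg1 (-2.56), a catalytic subunit of phosphorylase kinase, Gys1 (-0.58), which makes glycogen, and the muscle phosphorylase Pygm, which had 948, 1074 and 1018 CPM in sham hearts and 328, 471, 540.1 and 364 CPM post-MI. Triglyceride synthesis enzymes Lpin1, Gpam and Dgat2 fell by 2.60, 2.04 and 1.51, while Plin2, which coats lipid droplets, and Hilpda, which blocks lipolysis in hypoxia, rose by 2.43 and 3.85. Hilpda had 2.89, 2.9 and 2.73 CPM in sham hearts and 78.9, 64.5, 30.7 and 55.9 CPM post-MI. The lipase Pnpla2 differed by 0.16 and was not called. Of 23 sterol genes, 8 rose, 2 fell and 13, such as Hmgcs1 (-0.13), were not called. The pentose phosphate enzyme G6pdx and the nucleotide enzymes Ctps and Impdh2 rose by 1.74, 1.94 and 1.04. Energy buffers fell: the creatine kinases Ckm and Ckb by 0.68 and 0.91, myoglobin (Mb) by 0.58 and adenylate kinase Ak1 by 1.61, while Ampd3 rose by 1.74. The call of Mb was lost without MI heart D (-0.58) or without sham heart D (-0.55) or H (-0.54).

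Sarcomere and Z-disc genes did not fall as a block. Of 34, 18 fell and 8 rose. The main ventricular myosin Myh6 had 17379, 17344 and 17586 CPM in sham hearts and 3706, 5873, 7568 and 4114 CPM post-MI. Its regulator Mybpc3 fell by 1.78, titin (Ttn) by 0.97 and Cmya5 by 2.59. Cardiac actin Actc1 (-0.24), troponin Tnnt2 (-0.22) and light chain Myl2 (-0.45) were not called, although for Myl2 the adjusted p was 0.054 and each MI heart lay below each sham heart, and it was called without heart G (-0.52). Actin-binding proteins of the intercalated disc, Xirp2 and Xirp1, rose by 3.07 and 2.47, skeletal actin Acta1 by 1.94 and desmin (Des) by 1.71. Xirp2 had 296, 452 and 332 CPM in sham hearts and 2346, 2333, 3566 and 4077 CPM post-MI.

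Calcium handling genes fell more evenly, in 11 of 13 cases (median -1.13). Pln, which restrains the calcium pump, had 5823, 6662 and 6067 CPM in sham hearts and 863, 1103, 2107 and 844 CPM post-MI. The pump Atp2a2 itself fell by 1.90, the release channel Ryr2 by 1.63, the L-type channel Cacna1c by 2.00 and the store protein Casq2 by 1.13. Camk2d, the calcium-dependent kinase, differed by -0.12 and was not called. Heart G had the highest MI value of Pln, and the median difference of the list from the sham mean was -1.52, -1.30, -0.54 and -1.28 in the 4 MI hearts.

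Potassium channels end each heartbeat. Of 38 subunit genes, 24 fell and 7 rose (median -0.83). Kcnd2, of the transient outward current, had 28.8, 35.6 and 29.7 CPM in sham hearts and 1.99, 6.01, 4.83 and 3.58 CPM post-MI. Its partner Kcnip2 fell by 2.61, Kcnj3 by 3.11, the repolarising channel Kcnh2 by 2.36 and Kcnj2, which sets the resting potential, by 1.58. The regulatory subunit Kcne4 rose by 2.96, from 2.42, 1.53 and 1.69 CPM to 23, 41.9, 13.3 and 15.5 CPM. Among genes of conduction and adrenergic control, 12 of 19 fell, including the sodium channel subunit Scn4b (-2.95), the pacemaker channel Hcn2 (-1.95), connexin 43 (Gja1, -0.86) and the receptors Adrb1 (-0.91) and Adra1a (-2.25). The desmosome gene Pkp2 rose by 0.72.

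Genes of strained muscle rose. Nppb, a natriuretic peptide, had 167, 58.4 and 38.2 CPM in sham hearts and 1244, 1540.2, 1638 and 1793 CPM post-MI. Nppa rose by 3.35, Ankrd1, a stretch-responsive nuclear protein of muscle, by 2.89 and the calcineurin regulator Rcan1 by 2.28. Myl4, the other atrial marker tested, had a log2 fold change of 0.34 and was not called. Cardiac transcription factors fell in 11 of 20 cases, with Irx4 at -1.49, Mef2a at -1.10 and Tbx5 at -1.05, while Gata4 (-0.37), Nkx2-5 (-0.32) and Srf (0.02) were not called. Gata4 and Nkx2-5 were called lower without heart G (-0.53 and -0.40), and Nkx2-5 also without sham heart I (-0.46).

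**Figure D5:**
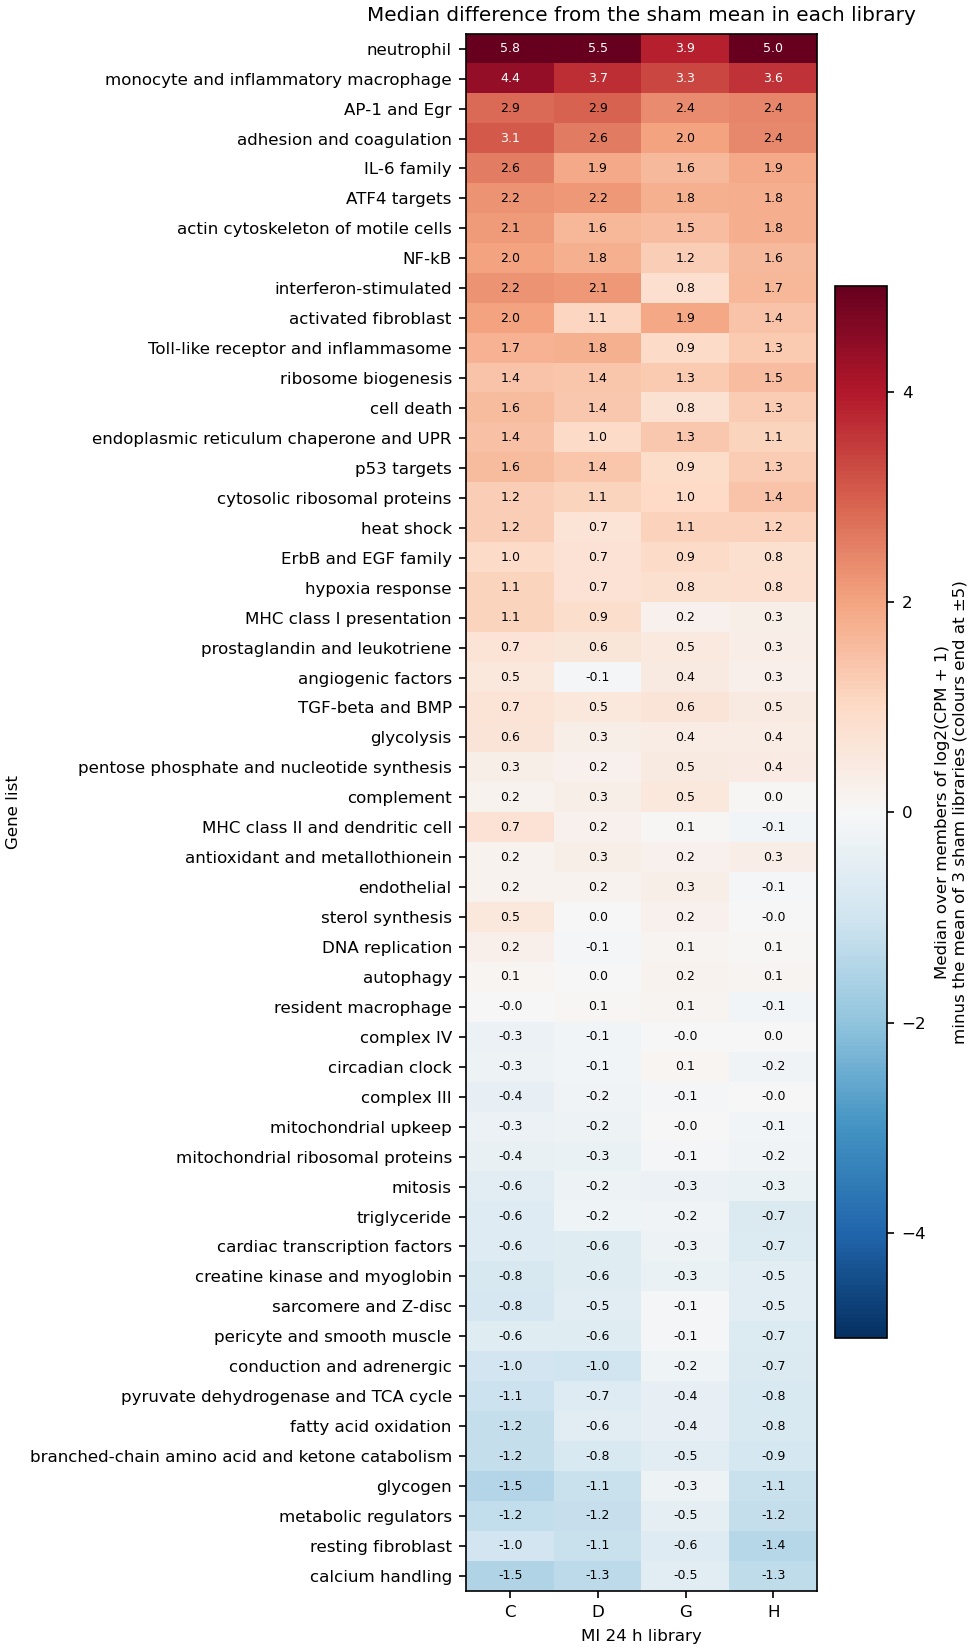
Median over the members of each list of log2(CPM + 1) minus the mean of the 3 sham libraries, in each of the 4 MI 24 h libraries (columns), red above sham and blue below. Library G is the palest column in most lists, with 3.9 for neutrophil genes against 5.0 to 5.8 in the others.

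Across the 24 lists of at least 5 genes whose median changed by 1 or more, every MI library moved in the same direction as the list. The lists were chosen by their medians in these same libraries, which makes such agreement likely beforehand. Library G was the nearest to sham in 21 of these lists and library C the farthest in 18. Infarct size is not among the data used here. Of the sham libraries, D lay nearest to the MI hearts for several genes, and without it the increases of Cdkn1a, Nppb, Angptl4 and Acta1 were 4.87, 5.0, 5.53 and 2.53 instead of 4.03, 4.4, 4.90 and 1.94. Cenpf fell by 4.52 without sham heart D and fell by 3.20 without sham heart I, against 3.83 with all hearts.

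Endothelial genes kept their summed level, at 1800.4 to 1919.8 CPM in sham hearts and 1499 to 2073 CPM post-MI. Of 25, 9 rose and 7 fell, close to the background. Pecam1, which joins endothelial cells, had 131, 139 and 135 CPM in sham hearts and 167, 139.8, 185 and 131 CPM post-MI and was not called, nor was Cdh5 (-0.02). Kdr, the main VEGF receptor, had 156, 147 and 136 CPM in sham hearts and 36.5, 39.8, 108 and 43.1 CPM post-MI and fell, with heart G apart from the other MI hearts. The water channel Aqp1 fell by 1.27, and the sphingosine-1-phosphate receptor S1pr1 rose by 1.40.

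Genes of adhesion to vessel walls and of coagulation, listed together, rose in 17 of 19 cases (median 2.40). Selp and Sele, the selectins of activated endothelium, rose by 5.37 and 3.40, and Vcam1 and Icam1 by 0.89 and 2.17. Plaur, the urokinase receptor, had 1.37, 1.09 and 0.975 CPM in sham hearts and 83.3, 74.2, 40.4 and 49.5 CPM post-MI, and rose by 4.82. Among vessel growth factors, Angptl4 rose by 4.90, Pgf by 4.08, Angpt2 by 1.98 and Apln by 1.49, while the stabilising ligand Angpt1 fell by 2.14, the apelin receptor Aplnr by 2.09 and Vegfb by 0.69.

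Pericyte and smooth muscle genes fell in 9 of 17 cases, with the channel subunit Abcc9 (-2.16), Rgs5 (-1.52) and the smooth muscle myosin Myh11 (-1.51). Pdgfrb had 53.9, 56.8 and 70.6 CPM in sham hearts and 60.8, 53.1, 83.1 and 48.6 CPM post-MI and overlapped between groups, and Acta2 (-0.66) was not called, although it was without MI heart C (-0.87). The adhesion molecule Mcam rose by 1.75. Abcc9 is also made by cardiomyocytes.

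Fibroblast genes separated by state. Those of resting fibroblasts fell in 17 of 19 cases (median -1.07), and their summed level went from 2018 to 2422 CPM to 805 to 1526 CPM. Scara5 fell by 2.58, the protease Htra3 by 2.54, Ogn by 2.40, decorin (Dcn) by 0.59 and the lineage factor Tcf21 by 0.65. Pdgfra, the receptor found on nearly all cardiac fibroblasts, had 36.5, 41.3 and 39.4 CPM in sham hearts and 38.5, 29.2, 60.0 and 38.5 CPM post-MI, a difference of 0.04 ± 0.19 that was not called. Genes of activated fibroblasts rose in 16 of 20 cases (median 1.62). Tenascin C (Tnc) had 1.63, 1.01 and 0.552 CPM in sham hearts and 122, 56, 101 and 75.7 CPM post-MI. Lysyl oxidase Lox rose by 4.83, Ctgf by 3.43 and periostin (Postn) by 1.36, and Fap fell by 0.99.

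Collagens showed no common direction at 24 h, with 7 of 26 higher, 9 lower and a median of -0.01. The fibrillar collagen Col1a1 had 80.8, 65.1 and 64.8 CPM in sham hearts and 94.3, 50.6, 119 and 41.2 CPM post-MI, and its difference of -0.00 ± 0.31 was not called, nor was that of Col3a1 (-0.30), which fell by 0.56 without heart G. The basement membrane collagens Col4a1 and Col4a2 rose by 0.97 and 0.87, Col12a1 rose by 2.33 and Col14a1 fell by 1.91. Matrix proteases and their inhibitors split too. Adamts4, which cleaves aggrecan and versican, had 1.7, 0.605 and 0.812 CPM in sham hearts and 178, 209.8, 179 and 147 CPM post-MI, Mmp9 rose by 4.95 and Mmp14 by 1.97, while Mmp15 fell by 2.57 and the inhibitor Timp2 by 1.28.

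In the TGF-beta and BMP families 14 of 23 genes rose. The ligand genes that rose included the activin subunits Inhbb (4.31) and Inhba (3.11), Tgfb2 (2.54) and Tgfb1 (1.66), and Bmp4 (0.46) was not called, although it was without MI heart G (0.55) or H (0.56) or sham heart H (0.64). EGF family ligands rose as their muscle receptor fell: Hbegf had 18.9, 17.2 and 15.6 CPM in sham hearts and 322, 335, 292 and 370.4 CPM post-MI, Ereg rose by 3.77 and Nrg1 by 0.94, and Erbb4, the neuregulin receptor of cardiomyocytes, fell from 11.8, 17.7 and 14.2 CPM to 2.03, 2.75, 5.16 and 2.55 CPM.

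The machinery that makes proteins in the cytosol rose as a whole. Of 85 cytosolic ribosomal protein genes, 83 rose (median 1.20). Rpl3 had 64.8, 47.8 and 61 CPM in sham hearts and 277, 264, 274 and 360.2 CPM post-MI. The gene that fell was Rpl3l, the form that replaces Rpl3 in heart and skeletal muscle, with 169, 221 and 190.5 CPM in sham hearts and 82.1, 98.1, 109 and 95.1 CPM post-MI. Rpl21 had 18.2, 0.645 and 0.942 CPM in sham hearts and 62.9, 61.5, 52.9 and 36.8 CPM post-MI. It rose by 3.76, or by 4.90 without sham heart D and 3.13 without sham heart H. Many of these genes have processed copies elsewhere in the genome among which reads may have been divided, so single levels are uncertain. Ribosome assembly genes rose in 34 of 36 cases (median 1.44), including Nop56 (1.88), Ncl (1.35), Gnl3 (2.53) and Rrp12 (2.91). Of 53 initiation factor genes 38 rose, with the helicase Eif4a1 at 2.27 and the inhibitor Eif4ebp1 at 2.10. Cytosolic aminoacyl-tRNA synthetases rose in 17 of 20 cases, among them Wars (0.59) for tryptophan.

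The mitochondrial counterparts went the other way or stayed. Of 78 mitochondrial ribosomal protein genes 8 rose and 31 fell (median -0.25), with Mrpl39 at -1.14, Mrpl12 not called at -0.17 and Mrpl52 at 1.37. Of 17 mitochondrial synthetases 10 fell (median -0.50). The cytosolic cysteine enzyme Cars had 11.5, 12 and 9.88 CPM in sham hearts and 37.4, 32, 31.5 and 36.7 CPM post-MI.

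Protein disposal and RNA processing genes rose more modestly. Proteasome genes were higher in 35 of 46 cases (median 0.51), with the lid subunit Psmd11 at 1.83, the core subunit Psma6 at 0.57 and the activator Psme4 as the member that fell, by 1.0. Splicing factors were higher in 40 of 55 (median 0.55), led by Snrpa1 (1.73), with Srsf2 at 0.81 and the kinase Clk1 at 0.13 and not called, and nuclear pore and transport genes in 20 of 35, such as Nup62 (1.13).

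Of 9 mitosis genes tested, 0 were called higher and 4 fell (median -0.33). The proliferation marker Mki67 had 3.04, 2.46 and 5.1 CPM in sham hearts and 1.95, 2.28, 2.54 and 1.22 CPM post-MI and was not called (-0.58 ± 0.26), although it was lower without MI heart G (-0.66) or sham heart H (-0.75). Top2a fell by 0.76, or by 0.60 and not called without sham heart I. Of 27 replication genes 10 rose, among them the helicase subunits Mcm6 (1.51) and Mcm5 (0.97) and the clamp Pcna (0.83), and 6 fell, such as Rpa1 (-0.94). Replication-dependent histone messages lack a poly(A) tail, and the libraries were made from poly(A) RNA.

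Of 19 circadian clock genes, 5 rose and 7 fell (median -0.11), near the background, and the sham hearts themselves differed. Dbp had 7.13, 56.2 and 61.9 CPM in sham hearts and 6.34, 4.09, 7.89 and 4.53 CPM post-MI, so sham heart D lay among the MI hearts. Without it, the fall of Dbp was 3.20 instead of 2.23, and that of Per3 was 2.58 instead of 1.86. Hlf fell by 2.28 and Nr1d1 by 0.96, and Nr1d1 had 91.3, 95.3 and 101 CPM in sham hearts and 47.6, 49.7, 55.2 and 42.7 CPM post-MI. Nfil3, which opposes Dbp at the same sites, had 20.9, 9.88 and 6.69 CPM in sham hearts and 99.4, 102, 50.1 and 62.3 CPM post-MI, Per1 rose by 1.57 (1.09 without sham heart D) and Bhlhe40 by 1.23. The core activator Arntl had 15.6, 3.63 and 5.36 CPM in sham hearts and 12.3, 11.3, 11 and 11.6 CPM post-MI and was not called (0.67), although it was without sham heart D (1.21). Per2 (0.49) was not called. The hour of day of collection is not in the labels used here, and its part in these values was not tested.

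The summed levels of red cell genes overlapped between groups, at 161 to 247 CPM in sham hearts and 195 to 396 CPM post-MI. Adipocyte markers summed to 2.54 to 3 CPM and 1.73 to 16.5 CPM, with the MI range reaching above that of sham, and Adipoq differed by 0.03 and was not called. Nerve and Schwann cell genes fell in 4 of 6 cases (median -0.80). Of the broad symbol classes, 54 of 311 genes named Zfp (zinc finger proteins) rose and 105 fell, and 63 of 207 solute carriers rose and 77 fell.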

How the data were processed

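Poly(A) RNA of the LV was sequenced as single 50-bp reads from stranded mRNA libraries, 1 per mouse. For the deposited CPM, the authors mapped reads to the mouse build mm10 (STAR), assigned them to RefSeq genes in Partek Flow by expectation-maximization and scaled the libraries by TMM. Whether strand was used in counting is not given in the sources used here, so overlapping antisense genes cannot be told apart. Genes with a 0 in any library are not listed in this table. The second table of the series, normalized separately, was used only for the other observations.

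From these values, log2(CPM + 1) of the 12487 genes averaging 1 CPM or more over 10 libraries was fitted with limma 3.58.1 in R 4.3.3 (lmFit, eBayes with trend), with the groups MI 24 h, MI 4 h and sham in a single model without covariates, and p-values of MI 24 h against sham were adjusted by the Benjamini-Hochberg method. CPM are not counts, so no count model was the main test. On simulated reads for this comparison, 85 of 85 genes changed 4 times and 53 of 104 changed 2 times passed the threshold in a fit of 12154 genes, and so did 5 unchanged genes. The simulation changed only 189 genes and used a fixed spread (dispersion 0.05), so its shares do not give the detection rate in the data. Depth was estimated as the sum of a library's values over its lowest value. Tables and figures used Python 3.11.15, pandas 2.3.3 and matplotlib 3.10.9.

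The comparison and the 82 gene lists were chosen with earlier results of these data known, so no list was tested as a set. Genes were named by rule: the increases and decreases of ranks 4 to 8 among called genes that averaged 10 CPM or more and whose groups did not overlap, the key genes of each list whatever they did, and its largest called change under the same limits. Further members were named after their values were seen, and some genes that the rule names are not reported here. Promoters (250 bases upstream) came from RefSeq on GRCm38.p6, the coordinates of mm10, and those of chromosome 18 were left out. Mouse letters recur between groups, but the mice differ, and 2 shared letters (D and H) gave correlations of -0.05 and -0.06 between their deviations, so no pairing was assumed. Other pseudocounts, filters, scalings, weights, models and left-out libraries were tried as alternatives.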

Additional observations from a re-analysis of the deposited data

Results flagged for a closer look

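Of 352 genes named in the text or chosen by its rules, 20 had 1 of the 4 MI hearts apart from the other 3, by Dixon's test at the 95% level. Chance would flag about 1 in 20 independent genes, and the number is close to that. These genes come from the same hearts, and some were named after their values were seen. The rate is therefore only a guide, and the values follow without weighing. Heart G was the one apart in 11 of the 20.

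In heart G, Kdr had 108 CPM against 36.5 to 43.1 CPM in the others, Cacna1c 119.6 CPM against 37.3 to 49.9, Mybpc3 1039.5 CPM against 589 to 665, Slc16a1 227 CPM against 122 to 132 and Mmp15 30.0 CPM against 12.4 to 15.3. Epha4 had 10.4 CPM against 1.88 to 2.72, Armc2 8.42 CPM against 1.13 to 2.31, Angpt1 7.57 CPM against 3.49 to 3.79 and Mrpl39 21.5 CPM against 14.6 to 15.1. Slc16a1 was not called, and its value in heart G lay above those of the 3 sham hearts. The other 8 genes fell 24 h post-MI, and in these heart G lay toward the sham values. Eif1a with 83.5 CPM (others 105 to 108) and Gm5483 with 8.86 CPM (others 38.8 to 44.3) rose post-MI and were lowest in heart G.

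In heart C, Ccr2 had 57.1 CPM (others 26.4 to 28.8), Vim 515 CPM (others 343 to 348), Angpt2 30.4 CPM (others 15.0 to 17.0) and Asns 27.9 CPM (others 14.7 to 16.7). Ndufa4 with 304 CPM (others 385 to 397) and Cox6a2 with 458 CPM (others 587 to 607) were lowest there. In heart D, Hspa1a had 415 CPM (others 254 to 274) and Gdf15 27.8 CPM (others 14.1 to 15.1). In heart H, Rpl3 had 360.2 CPM against 264 to 277.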

How the results depend on the processing

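The numbers of genes called, 8236 with 4449 higher and 3787 lower, changed by more than 1.5 times under a single alternative, a minimum mean of 10 CPM, which left fewer genes to test (5316 called, 2899 higher and 2417 lower). When 1 library was left out at a time, 7334 to 8654 genes were called, 4058 to 4426 higher and 3263 to 4249 lower, with the most calls without heart G. The mouse letter as a replicate block gave 7498 calls (3755 higher and 3743 lower). The letters do not pair the mice, so this is a description of the fit and no paired result. Median-ratio scaling shifted the median of all genes by -0.04 and gave 50.3% of calls as higher, and equal-total scaling shifted it by -0.01 and gave 52.3%. Of 74 lists with at least 5 genes tested, 30 had over 50% of their members higher (28 to 32 over the alternatives) and 15 had over 50% lower (11 to 18). No list with a median of at least 0.5 in size changed sign under any of the 17 alternatives.

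Among 352 named genes, no call turned in direction under these alternatives. The call of 33 was gained or lost under at least 1, and of 11 under 6 or more: Ezr, Cd36, Cox6a2, Mb and Ciita lost theirs, and Cd163, Ctsd, Gata4, Myl2, Nkx2-5 and Sdhb gained one. The cause was not tested. On simulated reads of these depths, with 189 genes changed, 53 of 104 genes changed 2 times were called. Far more genes were called in the data, which makes the adjusted threshold less strict, so this share does not give the detection rate here.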

Other observations

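The series also holds hearts 24 h post-MI that had been injected with Luc modRNA, a synthetic messenger RNA for luciferase, in a table normalized apart from the one above. The same lists were described there from 3 Luc libraries and 2 sham libraries, as differences of mean log2(CPM + 1) less the median over all genes of that table (0.16), with no test. The sham label there gives a sham operation and 4 h. Which part of the LV was taken for these libraries is not given in the sources used here.

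Interferon-stimulated genes differed by a median of 3.83 in the Luc hearts, and all 30 lay above the median gene, against a median of 1.67 in the uninjected hearts above. MHC class I presentation genes differed by 1.91 against 0.70. Neutrophil genes differed by 1.96 against 4.95, and monocyte and inflammatory macrophage genes by 1.50 against 3.75.

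The muscle and mitochondrial lists did not all compare alike. Complex III genes differed by 0.30 in the Luc hearts against -0.16, and the 2 atrial markers by 3.34 against 1.85. Fatty acid oxidation genes differed by -0.06 against -0.73, TCA cycle genes by -0.10 against -0.72, calcium handling genes by -0.35 against -1.13 and resting fibroblast genes by 0.35 against -1.07. Cytosolic ribosomal proteins differed by 0.31 against 1.20, with 62 of 85 above the median gene, and heat shock genes by 0.38 against 1.12. AP-1 and Egr genes, at 1.97 against 2.70, and chemokine ligands, at 2.87 against 2.69, lay above 0 in both. The injection, the table and the sham group differ between these values and cannot be told apart, and whether the piece of tissue differed is not known.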
